A study of Mus musculus with 8 samples.

Results

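Protein phosphatase 2A (PP2A) is a serine/threonine phosphatase assembled from a scaffold (A) subunit, a catalytic (C) subunit and 1 of several regulatory (B) subunits that steer the enzyme to its substrates. The genes described here are 10 PP2A subunit genes, taken by gene symbol from the 49585 genes of each deposited file: the catalytic subunits Ppp2ca and Ppp2cb, the scaffolds Ppp2r1a and Ppp2r1b, the B55 regulatory subunits Ppp2r2a, Ppp2r2b and Ppp2r2c, the B56 regulatory subunits Ppp2r5b and Ppp2r5c, and the B'' regulatory subunit Ppp2r3c. The family was selected on the knock-out and wild-type mean FPKM of Ppp2cb and Ppp2r3c, both lower in knock-out libraries, so differences of the 10 genes between the genotypes are a description here and carry no test.

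The samples were polyadenylated RNA from the dorsal horn of lumbar segments 4 to 6 of adult C57BL/6J mice, 4 libraries from miR-96 knock-out mice and 4 from wild-type mice. The series' design text counts 4 mice of each genotype, without saying in so many words that each library is 1 mouse, and the labels give no further detail of the knock-out allele. The series asks whether loss of miR-96, a microRNA, changes the spinal transcriptome, with sodium channels in its title. As background, microRNAs pair through their seed with sites in the 3′ untranslated region (UTR) of messenger RNAs and lower their level or translation. In neurons PP2A opposes many of the kinases that act in synaptic plasticity, and dephosphorylates tau. Tissue RNA is a mixture, so fewer cells of a type and less RNA per cell cannot be told apart in any value below.

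The mature miR-96 strand that the knock-out lacks by its label is printed below, with the matches to its seed among the 10 genes. A link between the knock-out and this family through these matches was not tested. In the first line the capitals mark the seed, bases 2 to 8 (RefSeq, GRCm38.p6, chromosome 6, 30169506 to 30169528, minus strand); in the other lines, read from GENCODE M21 transcripts on GRCm38, they mark the match in the 3′ UTR.
mmu-miR-96-5p: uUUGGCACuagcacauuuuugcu
Ppp2ca, chr11:52123211-52123233, plus strand: gtgcctgaGTGCCAAgctcagcg
Ppp2r3c, chr12:55280348-55280371, minus strand: atcagccaGTGCCAAAcaagcagc

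Sites were sought as GTGCCAA, the complement of seed bases 2 to 8, and as TGCCAAA, the complement of bases 2 to 7 followed by an A, on the sense strand of the longest annotated 3′ UTR. Of the 10 genes, 2 held a match. Ppp2ca held 1 GTGCCAA at bases 1245 to 1251 of a 3′ UTR of 5804 nt. Ppp2r3c held both forms, overlapping in an 8-base match at bases 1254 to 1261 of a 3′ UTR of 2626 nt. The Ppp2r3c match lay 451 nt outside the locus that the authors' file gives for this gene, whose 3′ end is 1823 nt shorter than in GENCODE M21, so it was outside the gene model behind the deposited FPKM. The other 8 genes held neither form, among them Ppp2cb, whose 3′ UTR is 247 nt. Of 13058 tested genes with a 3′ UTR of at least 50 nt, only 10.02% had a shorter one than Ppp2cb. Of the same 13058 genes, 20.5% held a match. A match is a description of the letters and does not show that the site is used.

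Mir96 itself was listed at 0 FPKM in all 8 libraries; a library of long polyadenylated RNA does not measure mature microRNAs, so this checks nothing about the labels. FPKM are fragments scaled to transcript length and to the mapped fragments of the library. The depth estimated from steps of 1 fragment among low values ran from 31800000 to 43100000 fragments per library. Dorsal horn neuron markers were present: the summed level of 6 dorsal horn neuron markers was 321 to 361 FPKM in knock-out libraries and 324 to 391 in wild-type libraries, and all 6 had a mean of at least 1 FPKM, while none of 4 sensory ganglion markers did. The 4 motor neuron markers, which belong to the ventral horn, summed to 4.40 to 23.2 FPKM in knock-out and 3.85 to 16.1 FPKM in wild-type libraries, with 3 of 4 at a mean of at least 1 FPKM, and the 4 meningeal and fibroblast markers to 42.6 to 87.0 FPKM in knock-out and 39.2 to 49.1 FPKM in wild-type libraries. Wild-type replicate 1 stood apart. Its 73 ribosomal protein genes summed to 36516 FPKM, while the knock-out libraries had 15798 to 19501 FPKM and wild-type replicates 2 to 4 had 15877 to 20675 FPKM. Its 5 blood markers summed to 199 FPKM, where knock-out libraries had 17.8 to 39.3 FPKM and wild-type replicates 2 to 4 had 5.96 to 34.4 FPKM. The 5 liver markers (none at 0 in all libraries, all 5 with a higher knock-out mean) summed to 24.8 to 50.8 FPKM in knock-out libraries, above the 1.29 to 10.2 in wild-type libraries. The part of these signals in the values below was not tested.

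All 10 genes were expressed, over a wide range. The scaffold gene Ppp2r1a was the highest at 502 ± 38.9 FPKM (SD over the 8 libraries), above 99.3% of the genes tested. Next came the B55 gene Ppp2r2c at 227 ± 17.3 FPKM and the B56 gene Ppp2r5b at 103 ± 10.8 FPKM. In the middle of the order stood Ppp2ca at 85.5 ± 4.92, Ppp2r2b at 74.4 ± 3.01 and Ppp2cb at 57.6 ± 8.38 FPKM. The lowest were Ppp2r5c at 34.7 ± 1.25, Ppp2r2a at 17.1 ± 1.07, Ppp2r1b at 9.45 ± 0.997 and Ppp2r3c at 7.31 ± 0.941 FPKM. Each gene exceeded the next one down in 8 of 8 libraries. Only for Ppp2ca (78.2 to 91.8 FPKM) and Ppp2r2b (71.2 to 80.5 FPKM) did the ranges of neighbours overlap, and Ppp2r5b against Ppp2ca and Ppp2r1b against Ppp2r3c were separated by little: their nearest values were 91.9 and 91.8, and 8.43 and 8.40 FPKM. Over the 8 libraries Ppp2cb varied most, with a coefficient of variation of 14.5%, followed by Ppp2r3c at 12.9%, and Ppp2r5c varied least at 3.59%. That spread includes the genotype difference on which the family was selected. Ppp2cb alone had 6.36% in knock-out and 9.59% in wild-type libraries. The most variable within a genotype were Ppp2r1b in knock-out (14.0%) and Ppp2r5b in wild-type libraries (11.3%). Within a genotype Ppp2r3c was among the steadier genes, at 4.31% in knock-out libraries and 2.98% in wild-type libraries.

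**Figure D1:**
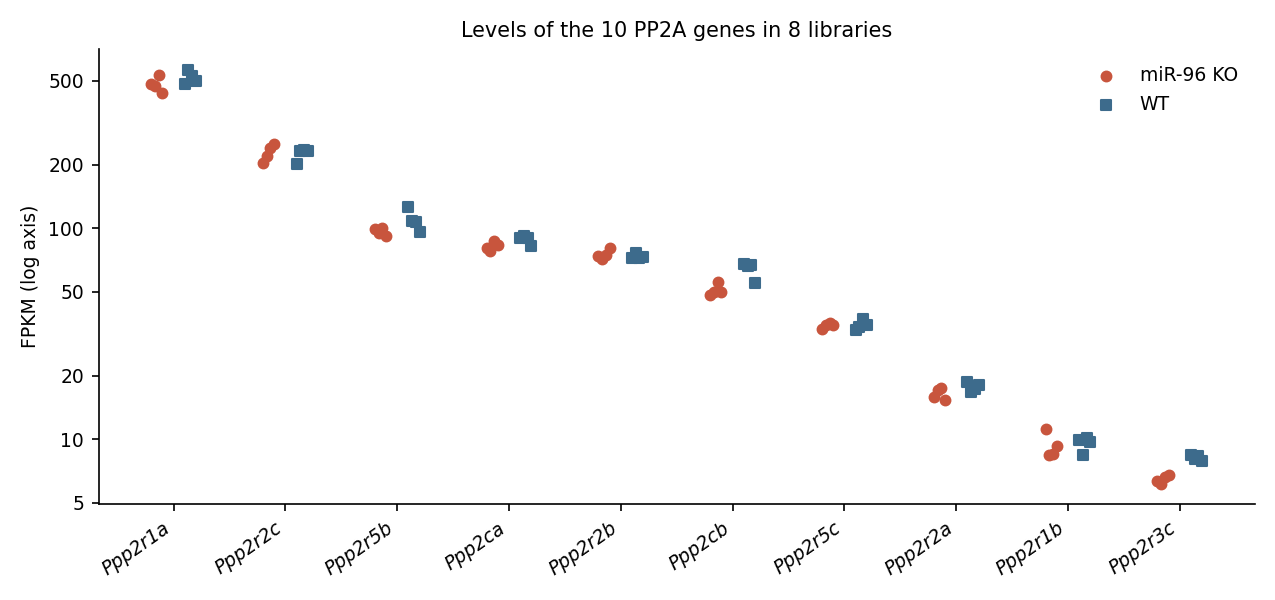
FPKM of the 10 PP2A genes (log axis) in each library, genes ordered by mean level; circles are the 4 miR-96 KO libraries and squares the 4 WT libraries. Ppp2r1a lies at 441 to 564 FPKM and Ppp2r3c at 6.17 to 8.40 FPKM, and only Ppp2r3c has no overlap between the genotypes.

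The catalytic subunits carry the active site, and the pair is nearly the same protein encoded at separate loci, with Ppp2ca known as the more abundant form in most tissues. Ppp2cb (ENSMUSG00000009630; chromosome 8, 33599625 to 33619441, plus strand) had 48.3, 49.9, 55.8 and 50.1 FPKM in knock-out replicates 1 to 4, against 68.1, 66.3, 67.4 and 55.03 FPKM in wild-type replicates 1 to 4. Of the knock-out libraries 3 lay below every wild-type library, while replicate 3 was slightly above wild-type replicate 4, the low one of its group, so the groups overlapped. The means were 51.0 ± 3.24 FPKM in knock-out and 64.2 ± 6.16 FPKM in wild-type libraries (SD, n = 4 each), a difference of -20.5%, and the log2 fold change on the scale of FPKM + 1 was -0.32 (limma SE 0.092). It was -0.29 without wild-type replicate 1, -0.39 without wild-type replicate 4, and -0.23 once the trends of transcript length and GC content in each library were removed. Ppp2cb has 1 annotated transcript, of 1469 nt, and its values rested on an estimated 2020 to 3420 fragments per library.

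Ppp2ca (ENSMUSG00000020349; chromosome 11, 52098681 to 52127778, plus strand) had 81.0, 78.2, 87.5 and 83.7 FPKM in knock-out replicates 1 to 4, against 89.6, 91.8, 90.2 and 82.3 FPKM in wild-type replicates 1 to 4. The groups overlapped, with wild-type replicate 4 again the lowest of its group. The log2 fold change was -0.098 (SE 0.076), and it was -0.29 with length and GC trends removed, where Ppp2ca lay further below 0 than Ppp2cb. The longest Ppp2ca transcript has 7102 nt. The coding sequences of Ppp2ca and Ppp2cb, 930 nt each with the stop codon, are identical at 81.7% of bases, with a longest identical run of 25 nt, and no window of 50 nt of Ppp2cb occurs in a transcript of another gene. Of the Ppp2ca windows of 50 nt, 43.2% also occur in another transcript, nearly all in the opposite-strand lincRNA 9430098F02Rik, which was listed at 0 FPKM in all 8 libraries. Whether strand was used in counting is not given in the sources used here.

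**Figure D2:**
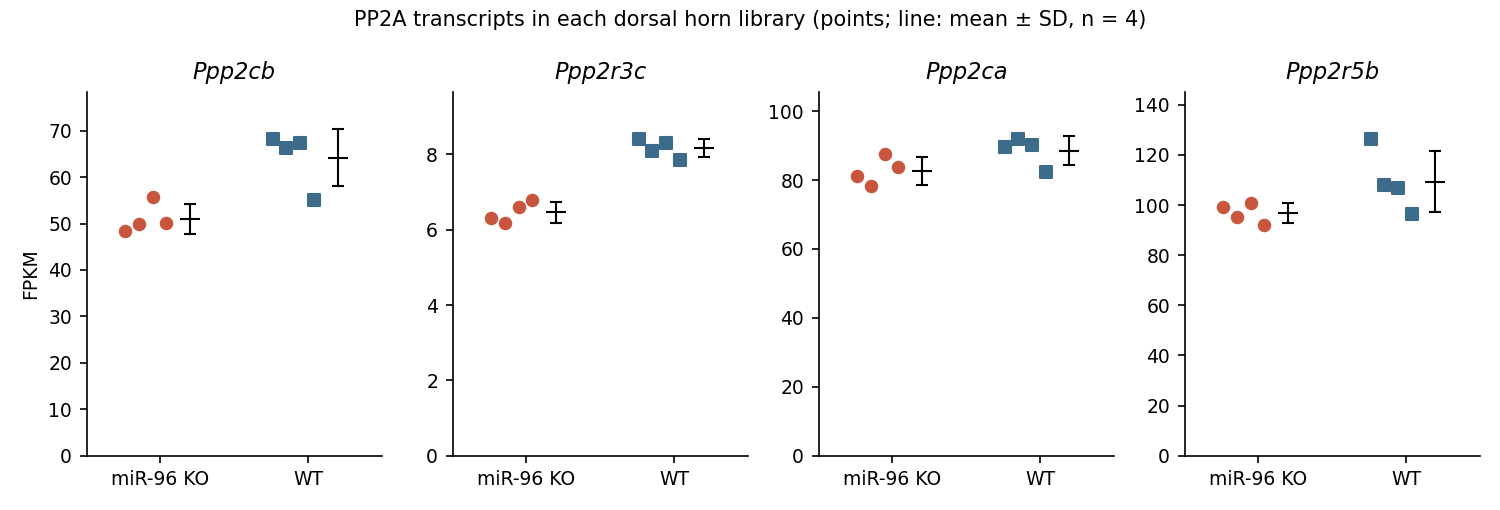
FPKM of Ppp2cb, Ppp2r3c, Ppp2ca and Ppp2r5b in each library, 4 miR-96 KO libraries on the left of each panel and 4 WT libraries on the right; the line is the mean with its SD and each axis starts at 0. The Ppp2r3c groups are separate (6.17 to 6.79 against 7.85 to 8.40 FPKM), while those of Ppp2cb, Ppp2ca and Ppp2r5b overlap through WT replicate 4.

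Within each library, Ppp2cb made up 37.4%, 39.0%, 38.9% and 37.5% of the catalytic FPKM (Ppp2ca plus Ppp2cb) in knock-out replicates 1 to 4, against 43.2%, 41.9%, 42.8% and 40.1% in wild-type replicates 1 to 4. In the FPKM as deposited this share did not overlap between the genotypes. Its mean was 38.2 ± 0.885% in knock-out and 42.0 ± 1.39% in wild-type libraries (SD, n = 4 each). The knock-out minus wild-type difference was -3.80 percentage points, and -3.41 points without wild-type replicate 1. The share depends on the processing: with length and GC trends removed it was 40.6 ± 1.76% in knock-out and 39.6 ± 4.51% in wild-type libraries, 1.04 points higher, and the groups overlapped. The summed catalytic level was 128 to 143 FPKM in knock-out libraries and 137 to 158 FPKM in wild-type libraries, which overlapped. The same contrast chose the family, so this share has no test either.

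**Figure D3:**
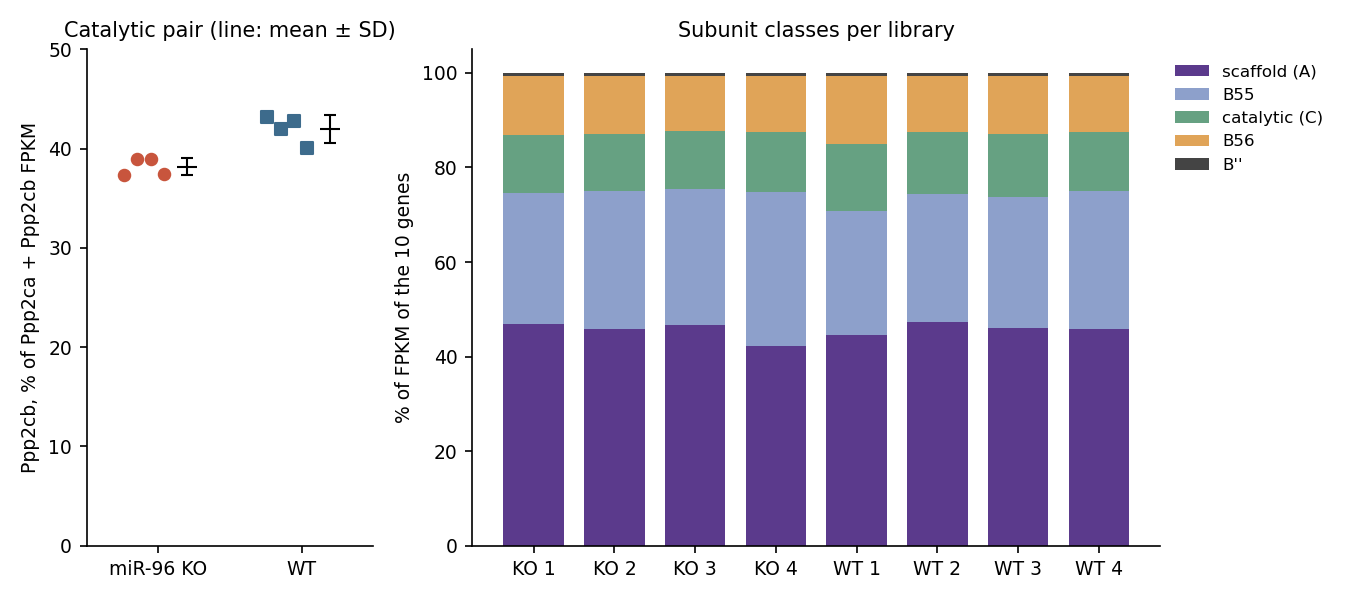
Left, Ppp2cb as a percentage of Ppp2ca plus Ppp2cb FPKM in each library with mean ± SD, 4 miR-96 KO libraries beside 4 WT libraries; right, percentage of the FPKM of the 10 genes held by each subunit class in each library. In the deposited FPKM the Ppp2cb share is 37.4 to 39.0% in KO and 40.1 to 43.2% in WT libraries, a separation lost with length and GC trends removed (38.5 to 42.6% in KO, 33.4 to 43.9% in WT), while the scaffold class holds 42.3 to 47.4% in every library.

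The scaffold subunits are the platform on which the catalytic and regulatory subunits meet. Ppp2r1a (ENSMUSG00000007564; chromosome 17, 20945311 to 20965916, plus strand) had 441 to 533 FPKM in knock-out libraries and 486 to 564 FPKM in wild-type libraries, which overlapped. Its log2 fold change was -0.10 (SE 0.097), which was -0.033 with length and GC trends removed and flipped to 0.041 with quantile normalization. Ppp2r1b (ENSMUSG00000032058; chromosome 9, 50845301 to 50894229, plus strand), the second scaffold, had 8.43 to 11.2 FPKM in knock-out and 8.43 to 10.1 FPKM in wild-type libraries, a log2 fold change of -0.032 (SE 0.11) whose sign turned without knock-out replicate 2 or 3. It made up 1.57 to 2.26% of scaffold FPKM in knock-out and 1.47 to 2.00% in wild-type libraries, so nearly all scaffold transcript was Ppp2r1a in both genotypes. For Ppp2r1b, 38.4% of windows of 50 nt are shared with the opposite-strand gene Sik2, a kinase gene, which had 9.28 ± 0.912 FPKM in knock-out and 7.24 ± 3.54 FPKM in wild-type libraries, with 1.96 FPKM in wild-type replicate 1.

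B55 subunits are beta-propeller proteins that recruit substrates such as tau. Ppp2r2c (ENSMUSG00000029120; chromosome 5, 36868513 to 36955078, plus strand), which encodes the brain-enriched gamma form, had 204 to 251 FPKM in knock-out and 202 to 236 FPKM in wild-type libraries, a log2 fold change of 0.014 (SE 0.098). Ppp2r2b (ENSMUSG00000024500; chromosome 18, 42637432 to 43059471, minus strand), the neuronal beta form whose human gene carries the repeat expansion of a spinocerebellar ataxia, had 71.2 to 80.5 FPKM in knock-out and 72.0 to 76.8 FPKM in wild-type libraries, a log2 fold change of 0.025 (SE 0.073). Both values were within their SE, and the sign of each turned when knock-out replicate 4 was left out. That of Ppp2r2c also turned without wild-type replicate 1 (-0.039), without knock-out replicate 3 and with library weights (-0.069). Ppp2r2a (ENSMUSG00000022052; chromosome 14, 67014057 to 67072471, minus strand), the widely expressed alpha form, had 15.4 to 17.4 FPKM in knock-out and 16.8 to 18.6 FPKM in wild-type libraries, with a log2 fold change of -0.10 (SE 0.082), or -0.20 with length and GC trends removed. Within the class Ppp2r2c held 69.5 to 72.3% of the FPKM in knock-out and 68.9 to 72.6% in wild-type libraries, ranges that overlapped.

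B56 subunits recognise short linear motifs in their substrates. Ppp2r5b (ENSMUSG00000024777; chromosome 19, 6227765 to 6235872, minus strand), the beta form, which is enriched in brain, had 99.0, 95.3, 101 and 91.9 FPKM in knock-out replicates 1 to 4, against 126, 108, 107 and 96.5 FPKM in wild-type replicates 1 to 4. The groups overlapped through wild-type replicate 4, and wild-type replicate 1 was the highest. The log2 fold change was -0.17 (SE 0.094) and -0.099 without wild-type replicate 1, the library that stood apart, or -0.094 with length and GC trends removed. Ppp2r5c (ENSMUSG00000017843; chromosome 12, 110485739 to 110583061, plus strand), the gamma form, had 33.3 to 35.6 FPKM in knock-out and 33.1 to 37.1 FPKM in wild-type libraries, with a log2 fold change of -0.0091 (SE 0.073) whose sign turned without wild-type replicate 3 or knock-out replicate 1. In GENCODE M21 this locus starts at 110447120, so the level rests on a differing gene model.

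The B'' subunits bind calcium, and Ppp2r3c encodes the gamma member, also known as G5PR and studied in mouse lymphocytes. Ppp2r3c (ENSMUSG00000021022; chromosome 12, 55280814 to 55303000, minus strand) had 6.31, 6.17, 6.59 and 6.79 FPKM in knock-out replicates 1 to 4, against 8.40, 8.10, 8.31 and 7.85 FPKM in wild-type replicates 1 to 4. Every knock-out library lay below every wild-type library, with a gap between the groups wider than the range within either. The means were 6.46 ± 0.279 FPKM in knock-out and 8.16 ± 0.243 FPKM in wild-type libraries (SD, n = 4 each), a difference of -20.8%, and the log2 fold change was -0.30 (SE 0.085). It ran from -0.32 to -0.28 when any 1 library was left out, and was -0.41 with length and GC trends removed.

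The Ppp2r3c value is less certain in origin than that of Ppp2cb. Within the deposited locus, 47.7% of the windows of 50 nt of its transcript also occur in transcripts of other genes. Over the whole transcript these were mainly Fam177a and 1700047I17Rik2, with 1186 windows each, then Gm2436 with 525, whose level was not read. How the authors' counting split such reads is not given in the sources used here. Fam177a was at 0.0844 ± 0.0315 FPKM in knock-out and 0.116 ± 0.0898 FPKM in wild-type libraries. 1700047I17Rik2 had 2.34, 4.45, 10.6 and 6.99 FPKM in knock-out replicates 1 to 4, against 2.33, 5.93, 2.30 and 1.18 FPKM in wild-type replicates 1 to 4. These groups overlapped. Their part in the Ppp2r3c difference was not tested.

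As a family, 8 of the 10 genes had a log2 fold change below 0 and 2 above, with a median of -0.099 and a range from -0.32 to 0.025. Among all 15061 tested genes (mean of at least 1 FPKM, which all 10 passed) 46.9% were below 0, 53.1% were above 0 and the median was 0.014. With knock-out replicate 4 left out all 10 lay below 0, and with quantile normalization 7 did. In 1 gene, Ppp2r3c, the 4 knock-out values all lay below the 4 wild-type values; 1.12% of tested genes showed this. None of the 10 showed the opposite, which 1.91% of tested genes did, and 3.03% were without overlap in either direction. No gene of the 15061 passed limma's adjusted p of 0.05 (0%), with 5.52% at an unadjusted p under 0.05. These figures use the contrast that picked the family and are no sign of a family-wide change.

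**Figure D4:**
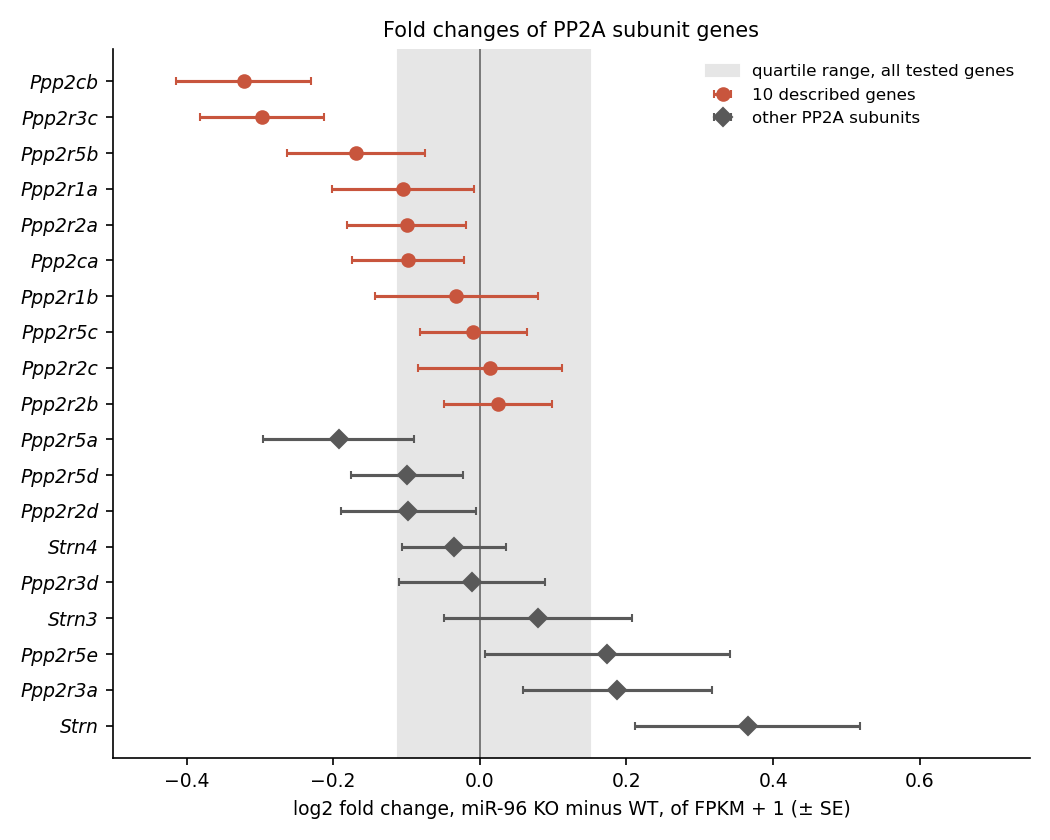
Log2 fold changes of FPKM + 1, miR-96 KO minus WT, with limma SE: circles are the 10 described genes, diamonds 9 other PP2A subunits, and the grey band runs between the lower and upper quartiles of all tested genes (-0.11 to 0.15). Ppp2cb at -0.32, Ppp2r3c at -0.30, Ppp2r5a at -0.19 and Ppp2r5b at -0.17 lie to the left of the band. Strn at 0.37, Ppp2r3a at 0.19 and Ppp2r5e at 0.17 lie to its right.

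The remaining PP2A subunits and the genes that assemble, inhibit or partner the enzyme were read as 5 lists holding 52 genes, of which 51 passed the filter; these were tested, though the lists too were drawn up with earlier results known. None of the 51 passed limma's adjusted p of 0.05 in either direction, and at an unadjusted p under 0.05 there were 3 higher in knock-out and 0 lower, against 3.69% and 1.83% of all tested genes. Below 0 were 26 of the 51 and above 0 were 25, with a median of -0.0082.

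Of the 9 other subunits tested, 5 lay below and 4 above 0. Strn encodes striatin, the PP2A regulatory subunit of the STRIPAK complex, which joins PP2A and kinases. It had 29.3, 25.9, 21.5 and 26.3 FPKM in knock-out replicates 1 to 4, against 14.7, 18.5, 23.2 and 23.5 FPKM in wild-type replicates 1 to 4. The groups overlapped. The difference was 0.37 on the log2 scale (SE 0.15, adjusted p = 0.62 in limma), and 0.23 without wild-type replicate 1 or 0.13 with length and GC trends removed. The Strn relatives Strn3 and Strn4 had log2 fold changes of 0.080 (SE 0.13) and -0.036 (SE 0.071), Strn3 turning to -0.076 with length and GC trends removed. The B56 genes Ppp2r5a and Ppp2r5d were at -0.19 (SE 0.10; -0.12 without wild-type replicate 1) and -0.10 (SE 0.076), and Ppp2r5e at 0.17 (SE 0.17), a value that turned to -0.019 without wild-type replicate 1, where it had 12.2 FPKM while wild-type replicates 2 to 4 had 21.2 to 21.9 FPKM. The fourth B55 gene, Ppp2r2d, was at -0.097 (SE 0.092), or -0.055 without wild-type replicate 1. The B'' gene Ppp2r3a was at 0.19 (SE 0.13) but at -0.033 with length and GC trends removed, and Ppp2r3d was at -0.011 (SE 0.099) but at 0.050 without wild-type replicate 1.

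The 5 genes of assembly, methylation and activation all lay below 0, from -0.15 to -0.082, with none past the threshold in limma (0 at an unadjusted p under 0.05). Among them Tiprl, a binding partner of catalytic subunits, was at 27.7 ± 0.977 FPKM in knock-out and 30.5 ± 1.18 FPKM in wild-type libraries (-0.14, SE 0.073). Ptpa, the phosphatase activator, was at -0.14 (SE 0.10), and Lcmt1, which methylates the catalytic subunit, at -0.15 (SE 0.11), or -0.076 without wild-type replicate 1. Of 9 inhibitors tested, 5 lay below 0 and 4 above, and without wild-type replicate 1 these counts were 3 and 6. Bod1, an inhibitor of B56-bound PP2A at kinetochores, was at 57.4 ± 5.51 FPKM in knock-out and 71.9 ± 13.7 FPKM in wild-type libraries (-0.30, SE 0.14, limma adjusted p = 0.62; -0.20 with length and GC trends removed). Ensa, a B55 inhibitor once phosphorylated, was at -0.13 (SE 0.092), and Fam122b at 0.23 (SE 0.13), or 0.12 with length and GC trends removed. Mastl, the kinase that phosphorylates Ensa, was below the filter, at 0.295 ± 0.176 FPKM in knock-out and 0.299 ± 0.0994 FPKM in wild-type libraries.

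Among 12 STRIPAK partners of the striatins, 8 lay above 0 and 4 below, with a median of 0.12. Without wild-type replicate 1, 6 lay above and 6 below, with a median of 0.050, and with length and GC trends removed the median was 0.029. Cttnbp2, a neuronal cortactin-binding protein of dendritic spines, had 33.1, 32.5, 26.0 and 27.2 FPKM in knock-out replicates 1 to 4, against 16.7, 18.9, 23.9 and 30.02 FPKM in wild-type replicates 1 to 4. Wild-type replicate 4 lay among the knock-out libraries, and the difference was 0.42 on the log2 scale (SE 0.17, adjusted p = 0.62 in limma). Sike1 and Slmap, which belong to the same complex, were at 0.29 (SE 0.12) and 0.34 (SE 0.16), Slmap at 0.22 without wild-type replicate 1 and Sike1 at 0.075 with length and GC trends removed. Of 16 related phosphatase genes, 9 lay above 0 and 7 below, with a median of 0.024, which was -0.014 with length and GC trends removed. The PP4 regulatory gene Ppp4r3b was at 0.37 (SE 0.26), the PP4 catalytic gene Ppp4c at -0.10 (SE 0.086) and the PP1 catalytic gene Ppp1ca at -0.12 (SE 0.10). With length and GC trends removed these values were 0.20, -0.023 and -0.014, and Ppp1ca was at -0.060 without wild-type replicate 1.

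The genes most like Ppp2cb and Ppp2r3c over the 8 libraries were sought among 12850 protein-coding genes by Pearson's r of log2(FPKM + 1). For Ppp2cb they were Rabggtb, a subunit of Rab geranylgeranyl transferase (r = 0.98, Spearman's rho 0.90), Asb16 (r = 0.97, rho 0.98) and Zkscan5 (r = 0.97, rho 0.88). Rabggtb had 29.99 ± 0.632 FPKM in knock-out and 33.4 ± 1.79 FPKM in wild-type libraries, with wild-type replicate 4 the lowest of its group, as for Ppp2cb. For Ppp2r3c they were Ttc23 (r = 0.98, rho 0.95), Frg1 (r = 0.94, rho 0.95) and Tmub2 (r = 0.93, rho 0.95). Between Ppp2cb and Ppp2r3c themselves r was 0.90, and between Ppp2cb and Ppp2ca 0.90. The points are the same 8 libraries throughout, each with its own depth and scaling, and any gene with a lower knock-out mean shares that part of the pattern, so these values describe likeness in these libraries and were not tested.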

How the data were processed

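The authors deposited FPKM per gene, 1 file per library, for 8 dorsal horn libraries (4 miR-96 knock-out, 4 wild type). HISAT2, SAMtools and Cufflinks are the tools named, per the submitters' processing notes; no version, option or strand setting is given there. The notes list build mm8, but 45128 deposited loci (91.5% of 49326 genes with a GENCODE M21 symbol) equal GRCm38, so coordinates are GRCm38, from 1. FPKM scale with the gene model, so a differing model (Ppp2r2a, Ppp2r3c, Ppp2r5c) can shift the level. The loci differ most for Ppp2r5c, which starts at 110485739 as deposited and at 110447120 in GENCODE M21. For Ppp2r2a the ends are close, at 67072471 as deposited and 67072444 in GENCODE M21.

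Genes with a mean of at least 1 FPKM were fitted with limma 3.58.1 in R 4.3.3 (eBayes with trend and robust, two-sided) on log2(FPKM + 1), which understates changes of low genes; p-values were Benjamini-Hochberg adjusted over all 15061. The script was tested on simulated data. Depth was estimated from fragment steps, assuming fragments of 200 nt. The members and lists were chosen with earlier results of these data known. Named were all 10 members, all other tested subunits, up to 3 genes of lowest p per further list (Mastl, Ppp3ca and genes sharing sequence were added after seeing values), and the 3 genes most alike to Ppp2cb and to Ppp2r3c. Same-numbered libraries were not taken as pairs.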

Additional observations from a re-analysis of the deposited data

Results flagged for a closer look

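Among 104 groups of 4 libraries checked, in 9 a single library stood far from the other 3, which chance gives in about 1 of 20 groups. The groups are not independent, since sums, shares and ratios are built from the same genes. The count of 9 is therefore no measure of an excess over that rate. Wild-type replicate 4 was low for Ppp2cb (55.03 FPKM, against 66.3 to 68.1 FPKM in wild-type replicates 1 to 3), for the catalytic sum (137 against 158 FPKM in each of the others) and for Ensa (107 against 124 to 126 FPKM). Wild-type replicate 1 was low for Ppp2r2c (202 against 233 to 236 FPKM), the B55 sum (294 against 325 to 327 FPKM) and Ppp2r5e (12.2 against 21.2 to 21.9 FPKM). Knock-out replicate 3 was high for the sum of the 10 genes (1161 against 1055 to 1064 FPKM) and for Tiprl (29.1 against 27.0 to 27.3 FPKM). Knock-out replicate 4 was low for the ratio of scaffold to catalytic FPKM (3.36 against 3.77 to 3.84).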

How the results depend on the processing

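The count of genes past limma's adjusted threshold was 0 of 15061 (831 at an unadjusted p under 0.05). It was also 0 in the other planned settings except library weights, which gave 1627 (1012 higher, 615 lower). When 1 library was left out it ran from 0 to 1 (1 without knock-out replicate 2). The count at limma's unadjusted p under 0.05 moved far more. It ran from 325 without knock-out replicate 1 to 3151 without wild-type replicate 4, and was 1438 without knock-out replicate 3. Of the other PP2A pathway genes 0 passed, 0 without any 1 library, and 4 with library weights (Cttnbp2, Slmap and Ppp3ca higher, Bod1 lower; lowest adjusted p 0.0389); these weights were 5.09 for wild-type replicate 3 and 0.153, 0.988 and 0.423 for wild-type replicates 1, 2 and 4. The median log2 fold change of the 10 genes stayed below 0, from -0.13 to -0.066 without 1 library, and the difference in the Ppp2cb share ran from -4.44 to -3.41 points without 1 library. That share difference reversed to 1.04 points with length and GC trends removed, a setting added for the share after seeing the data. For the fold changes removal of these trends was a planned setting, in which Ppp2ca was at -0.29 and Ppp2cb at -0.23. Ppp2ca, Ppp2cb, Ppp2r2a, Ppp2r3c and Ppp2r5b kept their sign in all 17 alternatives. Among these, changed filters, the fit without trend and robust, and the replicate block cannot alter a fold change, so they do not check the sign. Ppp2cb and Ppp2r3c were also the genes on whose lower knock-out means the family was selected. Same-numbered libraries did not deviate together (correlations of -0.11, -0.055, 0.024 and 0.14), and a replicate block left 0 genes past the threshold in both counts. The median of -0.099 stayed the same with the block by construction, since the design is balanced. The cause of the shifts between settings was not tested. Without the filter on low values 31319 genes were tested and 0 passed (1396 at an unadjusted p under 0.05).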
